A study of Rattus norvegicus with 18 samples.

Results

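The effect of *Ets1* editing on the transcriptome of encephalitogenic T cells was compared between the spinal cord parenchyma and the spleen. The measure was the log2 ratio of *Ets1*-KO over control, log2((*Ets1* + 1)/(NT + 1)) of the deposited normalized counts, formed for each replicate number within its tissue. This gave 3 ratios per tissue from 12 of the 18 libraries of the study, and 6520 of 32882 genes had a mean normalized count of at least 10 in both tissues and were compared. A ratio above 0 means more transcript in *Ets1*-KO than in control cells, and a difference above 0 means that the ratio was more positive in the parenchyma than in the spleen.

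All cells were TMBP cells, CD4+ T cells of Lewis rats that recognize myelin basic protein. The control cells (NT, labelled WT) had received a non-targeting guide and expressed BFP, and the *Ets1*-KO cells had received an *Ets1* guide and expressed GFP, so that marker and edit cannot be told apart. The KO cells were a pool of edited cells and not a clone. Both genotypes had been restimulated with MBP on irradiated thymocytes, were transferred to Lewis rats and were isolated on day 3 after transfer, with 3 libraries for each of the 4 groups. Cells of the parenchyma were enriched on a Percoll gradient, cells of the spleen by lysis of erythrocytes and CD4+ enrichment, and both were then sorted by FACS. The age of the animals is not given in the labels.

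ETS1 is a transcription factor of the ETS family that is abundant in lymphocytes and binds DNA at sites with a GGAA core. In CD4+ T cells it is known as a cofactor of Th1 cytokine expression and as a restraint on the Th17 programme. In this disease model the spleen holds T cells on their way to the nervous system, whereas T cells in the parenchyma meet their antigen again on local antigen-presenting cells. The guides that define the groups are shown because the whole comparison rests on them.

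Ets1 guide: tgctgctcggagttaacagt
Non-targeting guide: gctgcatggggcgcgaatca

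*Ets1* transcript itself did not mark the edited cells. In the parenchyma its normalized counts were 2326, 2573 and 2302 in NT cells and 2682, 2628 and 2342 in *Ets1*-KO cells, and in the spleen 1965, 2038 and 2227 against 1868, 1763 and 2369.8. The groups overlapped in both tissues, and the mean log2 ratios were 0.09 and −0.06 (SE 0.07 and 0.11, limma adjusted p = 0.56 and 0.854). Reads were counted at transcript 3′ ends and do not show an edit elsewhere in the transcript, so these counts do not check the edit.

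Between 898092 and 2248258 reads per library were counted on genes. *Ets1*-KO libraries were deeper than NT libraries in the spleen (1909862 to 2248258 against 898092 to 1213485) and shallower in the parenchyma (1246779 to 1411767 against 1437169 to 1546206), so that depth and genotype cannot be told apart. The pair of spleen replicate 3 stood apart, above all its *Ets1*-KO library. The chi-square per gene of that library to the other *Ets1*-KO libraries of the spleen was 8.95 and 9.23, whereas these differed from each other by 2.83. To the NT library of its own pair it was 4.74. That NT library was at 3.17 and 4.60 from the other NT libraries, which were 2.54 apart. The measure also grows with depth. Without the pair of spleen replicate 3 the number of genes with a tissue difference was 223 instead of 137, and 115 genes were in both counts. All 8 measured markers of CD4+ T cells passed the count minimum. None of them changed in either tissue with limma, 3 in the parenchyma and 1 in the spleen had an unadjusted p under 0.05, and their sums were 3879 to 4365 in the parenchyma and 3214 to 3485 in the spleen. Endothelial markers summed to at most 1.13 normalized counts in any library. Neural and glial markers summed to 62.3 to 110.2 in the parenchyma and 49.5 to 151.1 in the spleen. Microglia markers summed to 16.2 to 44.5 and 26.6 to 43.1. Erythroid markers were at most 1.01 in the parenchyma and 30.6 to 62.4 in the spleen. The part of such transcripts in the results was not tested. The study's methods call all replicates biological, whereas the labels give only a number for each.

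The effect of *Ets1* editing differed between the tissues for 137 of 6520 genes (2.1%; limma on the 6 ratios, Benjamini-Hochberg adjusted p under 0.05). The ratio was more positive in the parenchyma for 44 genes (0.675%) and more negative for 93 (1.43%). For 117 of the 137 genes the mean ratios of the tissues had opposite signs. Choosing genes by a difference favours opposite signs. Of the 6074 genes that changed in neither tissue by the tests below, 3138 had mean ratios of the same sign. The 3 ratios of one tissue lay entirely outside those of the other for 133 of the 137 genes, against 1186 (18.2%) of all genes compared. In the test within each tissue, 336 genes (5.15%) changed in the parenchyma, of which 136 rose (2.09%) and 200 fell (3.07%), and 140 genes (2.15%) changed in the spleen, of which 69 rose (1.06%) and 71 fell (1.09%). Changes in the same direction in both tissues were found for 26 genes (0.399%) and in opposite directions for 4 (0.0613%), whereas 306 genes passed the test in the parenchyma alone and 110 in the spleen alone. Passing in one tissue alone did not amount to a tissue difference: only 65 of the 306 and 30 of the 110 passed the test of the difference itself, as did 33 genes that passed in neither tissue. Counts in the gene lists below are to be read against these shares of all genes.

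**Figure D1:**
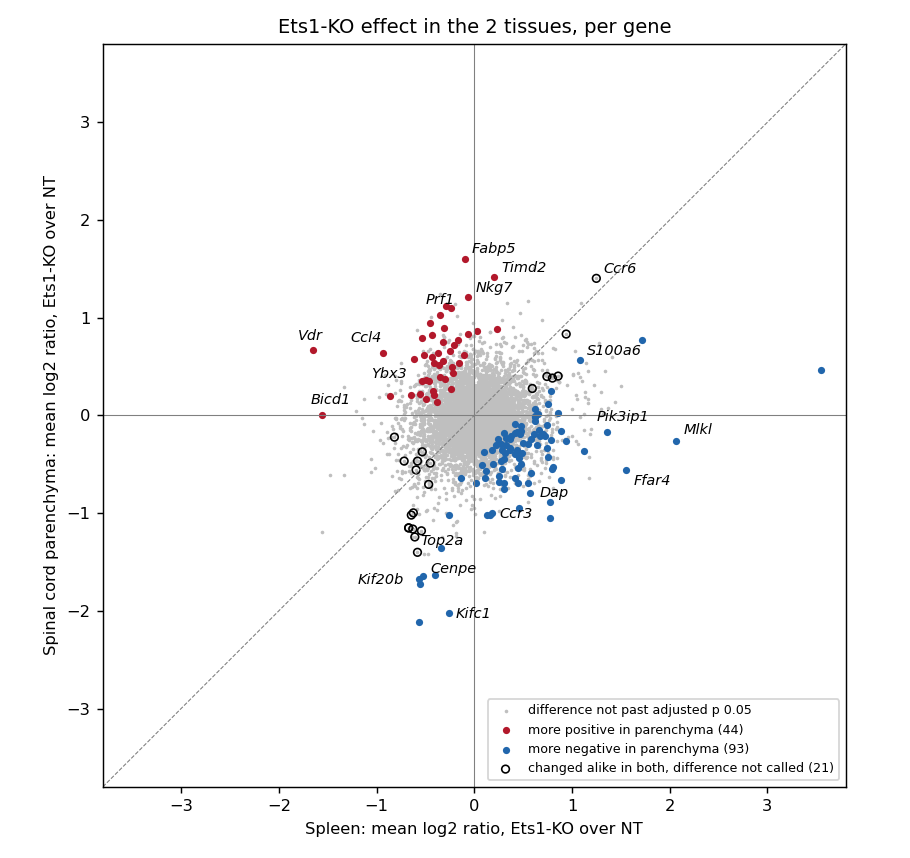
Mean log2 ratio of *Ets1*-KO over NT in the spinal cord parenchyma (y axis) against that in the spleen (x axis), 1 point per gene for 6520 genes. Red points mark the 44 genes whose ratio was more positive in the parenchyma and blue points the 93 for which it was more negative, open circles mark genes changed alike in both tissues without a tissue difference, and the dashed line marks equal effects.

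The count of 137 depended on the model. Without the replicate block 47 genes passed, all of them among the 137, without the trend of the variance on expression level 2 passed, and leaving out parenchyma replicate 1, 2 or 3 gave 37, 46 or 48. The share that was more positive in the parenchyma was 44 of 137 with limma, 67 of 145 (46.2%) with edgeR and 20 of 40 (50%) with DESeq2. All 137 differences kept their sign with edgeR and DESeq2. Of the 54 named genes with a difference, 14 passed whichever pair was left out (*Vdr*, *Ccl4*, *Prf1*, *Nkg7*, *Ybx3*, *Rangap1*, *Ffar4*, *Kifc1*, *Podnl1*, *Dap*, *Ccr3*, *Cenpe*, *Ezh2* and *Ctsb*), and the other 40 kept their sign but missed the threshold without at least 1 pair, with the highest adjusted p, or its range over several genes, given in their paragraphs.

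The genes that changed in opposite directions were *Vdr*, *Ybx3*, *Rangap1* and *Dap*. *Vdr*, the nuclear receptor of vitamin D, had normalized counts of 96.2, 79.0 and 86.5 in NT cells and 148, 133 and 135 in *Ets1*-KO cells of the parenchyma, and of 24.1, 33.3 and 29.8 against 6.16, 8.68 and 11.2 in the spleen. Its counts thus rose in all 3 pairs of the parenchyma (log2 ratio 0.67, SE 0.14, adjusted p = 0.00015) and fell in all 3 pairs of the spleen (−1.65, SE 0.34, adjusted p = 0.00956), with no overlap of the genotypes in either tissue. The tissue difference of 2.32 (SE 0.31, limma adjusted p = 7.72e-06) was the largest positive difference among the 137 genes and passed the threshold in all 17 alternative analyses that gave it a p-value.

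*Ybx3*, a Y-box protein that binds DNA and RNA, had 237, 222 and 177 normalized counts in NT and 318, 304 and 317 in *Ets1*-KO cells of the parenchyma, and 339, 281 and 289.9 against 195, 179.9 and 218 in the spleen. It rose by 0.57 in the parenchyma and fell by 0.61 in the spleen (difference 1.19, SE 0.16, limma adjusted p = 1.87e-05). *Rangap1*, which activates the GTPase RAN of nuclear transport, had 142, 104 and 91.4 against 174, 159.7 and 177 in the parenchyma and 400.4, 331 and 462 against 296, 262 and 269 in the spleen (log2 ratios 0.61 and −0.52, difference 1.13, SE 0.18, limma adjusted p = 0.00013). *Dap*, a death-associated protein, moved the other way. It had 396, 371 and 381 against 249.7, 265 and 274 in the parenchyma and 483, 538 and 514 against 659, 693 and 744 in the spleen, with log2 ratios of −0.54 and 0.45 (difference −0.99, SE 0.14, limma adjusted p = 2.16e-05). For each of these genes the NT and *Ets1*-KO counts did not overlap in either tissue. Choosing genes by these tests favours such separation. The share of all genes whose genotypes separate was not counted, so separation here and below describes the counts and adds no support. Without spleen replicate 1 the spleen change of all 4 genes missed the threshold and 3 genes of the whole spleen table passed, whereas the 4 tissue differences still passed.

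**Figure D2:**
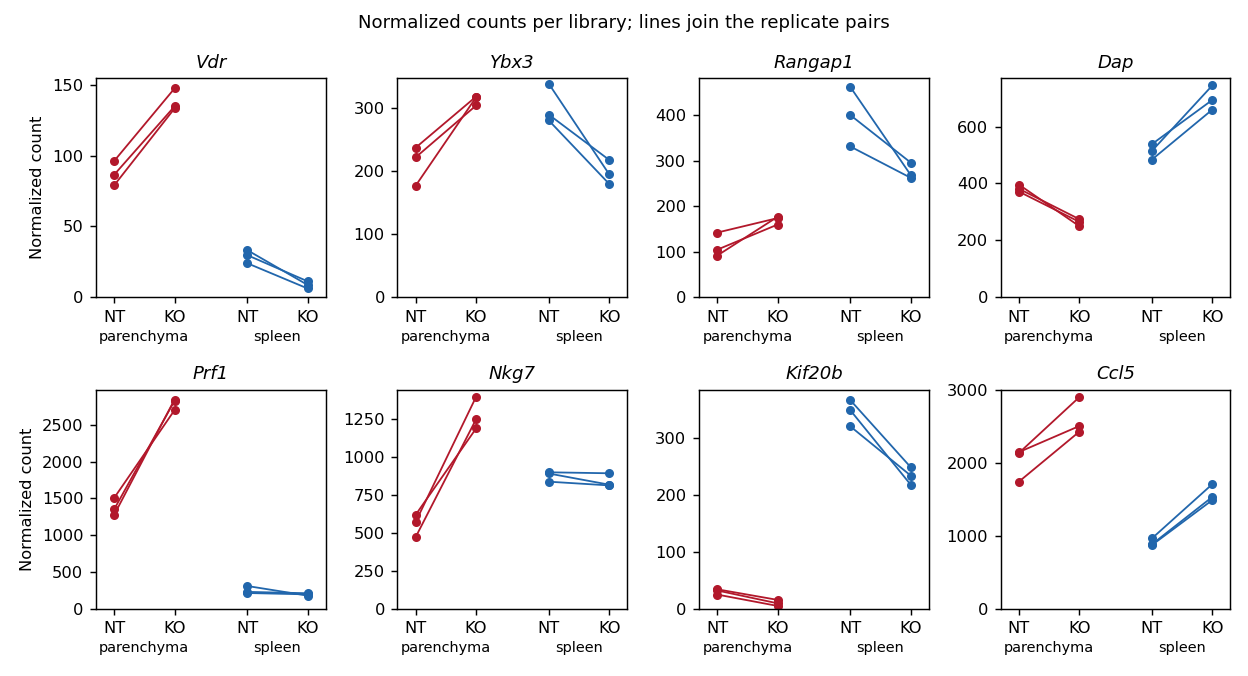
Normalized counts of 8 genes in the 12 libraries (y axis, starting at 0; parenchyma red, spleen blue), with a line joining NT and *Ets1*-KO of the same replicate number. The lines of *Vdr*, *Ybx3*, *Rangap1* and *Dap* ran in opposite directions in the tissues, *Prf1* and *Nkg7* rose in the parenchyma, *Kif20b* fell and *Ccl5* rose in both; the tables were scaled separately, so heights are compared only within a tissue.

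Genes of cytotoxic granules rose in the parenchyma and, apart from *Ccl5*, did not pass the test in the spleen. The list held 24 genes, of which 23 were in the tables and 14 could be compared. In the parenchyma 6 of the 14 rose (*Prf1*, *Nkg7*, *Cst7*, *Gzma*, *Ccl5* and *Srgn*) and 1, *Ctsw*, fell, and in the spleen *Ccl5* alone rose. The median log2 ratio of the list was 0.34 in the parenchyma and −0.01 in the spleen, against −0.03 and 0.01 over all genes compared. The median of the differences per gene was 0.12, and 8 of the 14 were positive, against 2932 of 6520 over all genes. A tissue difference was found for 4 members, all more positive in the parenchyma, with limma and with edgeR, and for 2 with DESeq2. Without spleen replicate 3, 4 members were more positive and 1 was more negative.

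*Prf1* encodes perforin, which forms pores in target cell membranes. Its normalized counts were 1505, 1349 and 1274 in NT and 2703, 2831 and 2847 in *Ets1*-KO cells of the parenchyma, and 307, 227 and 212 against 176, 208 and 193 in the spleen. Perforin transcript thus rose without overlap in the parenchyma (log2 ratio 1.02, SE 0.07) and had a ratio below 0 in each pair of the spleen (−0.35, SE 0.14, adjusted p = 0.239), with a difference of 1.38 (SE 0.15, limma adjusted p = 2.49e-07). *Nkg7*, a membrane protein of cytotoxic granules, had 617, 569.9 and 469.8 against 1185, 1393 and 1246 in the parenchyma and 835, 888 and 896 against 810.1, 815 and 889.8 in the spleen. Its log2 ratio was 1.21 (SE 0.08) in the parenchyma and −0.06 (SE 0.11) in the spleen, a difference of 1.27 (SE 0.14, limma adjusted p = 1.85e-07), and the spleen groups overlapped.

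*Gzma*, the serine protease granzyme A, followed the same pattern at lower counts. It had 64.5, 46.1 and 58.0 against 120.3, 99.1 and 105 in the parenchyma and 16.4, 13.98 and 17.2 against 12.3, 9.92 and 11.9 in the spleen (log2 ratios 0.94 and −0.45, difference 1.39, SE 0.34, limma adjusted p = 0.0205). *Cst7*, cystatin F, an inhibitor of granule cathepsins, had 57.0, 40.4 and 41.3 against 100.1, 106 and 90.7 in the parenchyma and 53.6, 26.9 and 43.9 against 36.3, 44.0 and 23.7 in the spleen (1.10 and −0.24, difference 1.34, SE 0.32, limma adjusted p = 0.0205). The spleen groups overlapped for *Cst7* and not for *Gzma*, and neither passed the test in the spleen. With a parenchyma pair left out the adjusted p of the difference reached 0.149 for *Gzma* and 0.15 for *Cst7*. Of the markers of NK and CD8+ cells, *Cd8b*, *Klrb1c* and *Ncr1* were at 0 in every library. The summed list was 60.7 to 79.6 in NT and 75.9 to 84.9 in *Ets1*-KO cells of the parenchyma and 40.7 to 41.6 against 45.9 to 54.6 in the spleen.

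The sequences upstream of the start sites of *Prf1*, *Nkg7*, *Vdr* and *Kif20b* are shown as single examples and do not stand for other genes. *Kif20b*, a mitotic gene described below, fell in both tissues and also had a tissue difference. They are the 250 bases before the RefSeq start on GRCr8, a later build than that of the counts. The longer ETS core CCGGAA was searched on both strands, in the window from 250 bases before to 50 bases after the start, and 4332 of 27457 rat promoters (15.8%) held it. Capitals mark its matches, of which *Kif20b* had 2 that overlap on opposite strands and the other promoters shown had none. Among other mitotic genes named here, *Mki67*, *Top2a*, *Kif11*, *Kif15*, *Cenpe* and *Cep250* had 0 matches. *Kifc1*, *Ndc80*, *Cenpf* and *Kif4a* had 1 each. A match describes the letters in this window and not a bound site.

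Prf1, chr20:29788790-29789039, plus strand: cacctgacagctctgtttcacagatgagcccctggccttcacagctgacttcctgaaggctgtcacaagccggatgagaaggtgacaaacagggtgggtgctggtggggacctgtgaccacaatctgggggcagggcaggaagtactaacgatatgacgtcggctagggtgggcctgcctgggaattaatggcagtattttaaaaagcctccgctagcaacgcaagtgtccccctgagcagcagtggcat
Nkg7, chr1:102981247-102981496, plus strand: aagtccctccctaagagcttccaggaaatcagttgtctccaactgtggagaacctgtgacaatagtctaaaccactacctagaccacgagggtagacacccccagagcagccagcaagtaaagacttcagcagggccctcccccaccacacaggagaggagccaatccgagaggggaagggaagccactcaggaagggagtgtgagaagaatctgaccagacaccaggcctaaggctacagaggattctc
Vdr, chr7:130916758-130917007, minus strand: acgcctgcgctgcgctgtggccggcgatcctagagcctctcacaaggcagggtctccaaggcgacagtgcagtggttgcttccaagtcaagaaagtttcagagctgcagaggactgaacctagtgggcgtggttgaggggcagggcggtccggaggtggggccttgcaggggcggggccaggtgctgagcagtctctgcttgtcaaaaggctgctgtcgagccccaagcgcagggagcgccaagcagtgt
Kif20b, chr1:241840766-241841015, plus strand: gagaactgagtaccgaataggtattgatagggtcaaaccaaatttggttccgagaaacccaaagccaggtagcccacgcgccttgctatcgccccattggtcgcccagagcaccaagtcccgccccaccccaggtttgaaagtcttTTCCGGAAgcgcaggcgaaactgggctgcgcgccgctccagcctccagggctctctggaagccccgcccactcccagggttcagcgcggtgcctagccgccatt

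Of 8 cytokine and chemokine genes compared, 4 rose and 1 fell in the parenchyma, 1 rose in the spleen and 2, *Ccl3* and *Ccl4*, had a tissue difference. The medians of the list were 0.31 and −0.02, and 4 of the 8 differences were positive, against 2932 of 6520 over all genes. *Ccl3* and *Ccl4* encode inflammatory chemokines made by activated T cells. *Ccl4* had 1477, 996 and 1023 normalized counts in NT and 2178, 1488 and 1759 in *Ets1*-KO cells of the parenchyma, and 23.0, 34.4 and 26.6 against 18.5, 12.4 and 11.9 in the spleen. Its log2 ratio was 0.64 (SE 0.07) in the parenchyma and −0.93 (SE 0.32, adjusted p = 0.161) in the spleen, a difference of 1.57 (SE 0.20, limma adjusted p = 6.52e-06), and the genotypes did not overlap in either tissue. *Ccl3* had 348, 349.8 and 259 against 549.9, 473 and 422 in the parenchyma and 44.8, 69.9 and 59.5 against 47.9, 51.5 and 30.0 in the spleen (0.60 and −0.44, difference 1.03, SE 0.21, limma adjusted p = 0.00408, up to 0.0845 without parenchyma replicate 1 or 3). *Ccl5*, a further inflammatory chemokine, rose in both tissues. It had 2149, 1743 and 2137 against 2508, 2430.2 and 2905 in the parenchyma and 882, 963 and 871 against 1534, 1709 and 1491 in the spleen (0.38 and 0.80). Its difference of −0.42 (SE 0.13) missed the threshold (limma adjusted p = 0.0816) and passed it without spleen replicate 3.

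Among receptor genes, *Il2ra* rose and *Ccr3* fell in the parenchyma, and both had a tissue difference. *Il2ra*, the high-affinity chain of the interleukin-2 receptor, had 668, 638 and 667 in NT and 1044, 1031 and 958 in *Ets1*-KO cells of the parenchyma, and 173, 158 and 172 against 166, 148 and 156 in the spleen (log2 ratios 0.62 and −0.10, difference 0.72, SE 0.14, limma adjusted p = 0.00347, up to 0.0557 without parenchyma replicate 1 or 2). *Ccr3*, the receptor of the eotaxins, had 489, 433 and 440.3 against 269.9, 202 and 213 in the parenchyma and 117, 167 and 114 against 141, 162 and 144 in the spleen (−0.997 and 0.19, difference −1.18, SE 0.17, limma adjusted p = 2.16e-05). Both genes separated the genotypes without overlap in the parenchyma and overlapped in the spleen. Of 15 cytokine receptors compared, 4 rose and 1 fell in the parenchyma, 1 rose in the spleen and 1, *Il2ra*, had a tissue difference. Over all genes compared, 2.09% rose and 3.07% fell in the parenchyma, 1.06% rose in the spleen and 2.1% had a difference.

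The Th17 list had no member with a tissue difference with limma, edgeR or DESeq2, and 2 with an unadjusted p under 0.05. Of its 20 genes 11 were compared, 4 rose in the parenchyma (*Ccr6*, *Il22*, *Il17a* and *Batf*) and 2 in the spleen (*Ccr6* and *Maf*), and the medians were 0.28 and 0.06. *Il17a*, the signature cytokine, had 389.5, 340.4 and 249 against 587, 431 and 421 in the parenchyma and 71.1, 71.0 and 83.0 against 75.3, 110.4 and 88.0 in the spleen. Its ratios were above 0 in all 6 pairs (means 0.56 and 0.27), and the difference of 0.30 had an SE of 0.18 (limma adjusted p = 0.497). *Il22* had 85.0, 79.9 and 54.1 against 161, 120.3 and 107 in the parenchyma and 19.7, 23.7 and 25.1 against 32.9, 19.2 and 51.8 in the spleen (0.82 and 0.48, difference 0.34, SE 0.31). The counts of *Il22* in the spleen overlapped and 1 of its 3 pairs had a ratio below 0, so that neither a shared effect nor a difference was detectable at this depth.

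**Figure D3:**
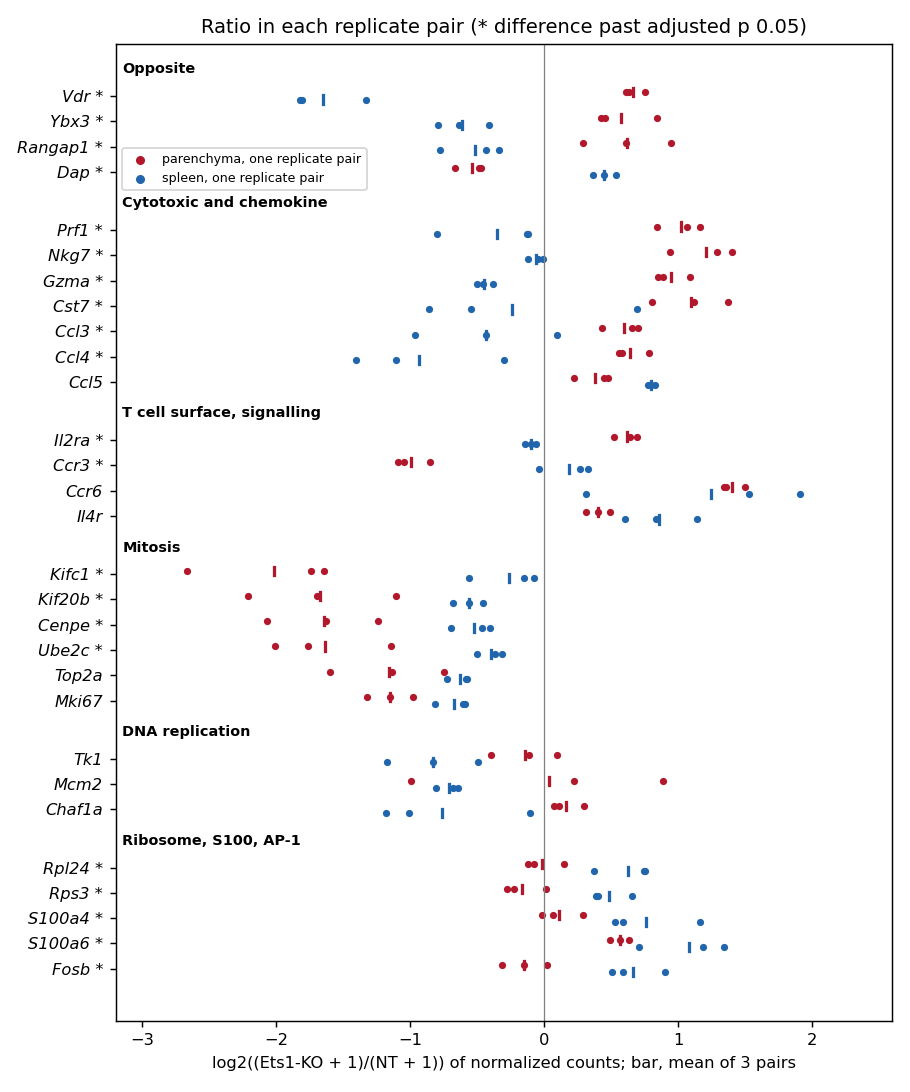
log2 ratio of *Ets1*-KO over NT (x axis) in each of the 3 pairs of the parenchyma (red) and of the spleen (blue) for the main named genes, grouped by function, with a bar at the mean. An asterisk marks genes with a tissue difference past the adjusted p of 0.05; the ratios of *Prf1* and *Nkg7* were above 0.8 in every parenchyma pair and below 0 in every spleen pair, whereas those of *Mki67* and *Top2a* were below 0 in all 6 pairs.

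The changes shared by the tissues were 8 rises and 18 falls. Without spleen replicate 1 the count of shared changes was 1, and it was 9 with DESeq2 and 35 with edgeR. The rises were those of *Ccr6*, *Jaml*, *S100a6*, *Il4r*, *Egr1*, *Ccl5*, *Tmsb4x* and 1 gene known by a locus name. *Ccr6*, the receptor of CCL20 on Th17 cells, had 147, 140.1 and 167 in NT and 374, 398 and 431 in *Ets1*-KO cells of the parenchyma, and 18.6, 19.4 and 9.40 against 23.3, 57.7 and 38.1 in the spleen. It rose by 1.40 (SE 0.11) and 1.25 (SE 0.32, adjusted p = 0.0343), with a difference of 0.15 (SE 0.28, limma adjusted p = 0.882). *Ccr6* counts did not overlap in either tissue. *Il4r*, the interleukin-4 receptor chain, had 403, 376 and 452 against 567, 496 and 562 in the parenchyma and 110.5, 133 and 132 against 244, 238 and 200.4 in the spleen (0.40 and 0.86, difference −0.46, SE 0.16, limma adjusted p = 0.131). *Jaml*, an adhesion molecule of leukocytes, rose by 0.83 and 0.94 (difference −0.11, SE 0.31). *Egr1*, an early response transcription factor, rose by 0.40 and 0.74, and *Tmsb4x*, thymosin beta-4, which sequesters actin, by 0.28 and 0.59. The calcium-binding protein gene *S100a6* rose in both tissues and rose more in the spleen: it had 550.2, 634 and 560.2 against 775, 937 and 867 in the parenchyma and 592, 729 and 470.1 against 1502, 1193 and 1072 in the spleen (0.56 and 1.08, difference −0.52, SE 0.14, limma adjusted p = 0.0456). Without spleen replicate 1 the *S100a6* difference was −0.39 (adjusted p = 0.25), and with a parenchyma pair left out its adjusted p reached 0.266.

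Most shared falls were in genes of mitosis. Of 18 genes of a mitosis list that could be compared, 10 fell in the parenchyma and 11 in the spleen, with medians of −0.94 and −0.58. Of 9 mitotic kinesins, motor proteins that move along spindle microtubules, 6 fell in the parenchyma and 5 in the spleen, with medians of −1.40 and −0.55. *Mki67*, the proliferation marker Ki-67, had 210.2, 206 and 166 in NT and 94.0, 104 and 65.7 in *Ets1*-KO cells of the parenchyma, and 1669, 1325 and 1819 against 949.7, 878 and 1195 in the spleen. It fell by 1.15 (SE 0.13) and by 0.67 (SE 0.11), without overlap, and the difference of −0.48 (SE 0.15) did not pass (limma adjusted p = 0.0756). *Top2a*, a topoisomerase of dividing cells, had 205, 237 and 143 against 66.7, 107 and 85.0 in the parenchyma and 2439, 2203 and 2676 against 1473, 1477 and 1788 in the spleen (−1.16 and −0.63, difference −0.53, SE 0.16, limma adjusted p = 0.067). In sorted bulk samples, fewer dividing cells and less transcript per dividing cell cannot be told apart.

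*Kif20b*, *Cenpe*, *Kifc1*, *Kif15* and *Ube2c* fell in the parenchyma and differed between the tissues, each more negative in the parenchyma. *Kif20b*, a kinesin of cytokinesis, had 31.8, 33.9 and 24.6 against 9.10, 15.2 and 4.53 in the parenchyma and 349, 321 and 367 against 218, 234 and 249 in the spleen (−1.67 and −0.56, difference −1.11, SE 0.26, limma adjusted p = 0.0165). *Cenpe*, the kinesin of the kinetochore, had 54.2, 61.1 and 51.1 against 12.1, 25.3 and 15.9 and, in the spleen, 713, 588 and 675 against 439.6, 427 and 509 (−1.65 and −0.52, difference −1.12, SE 0.20, limma adjusted p = 0.00108). *Kifc1*, a motor that moves to the minus end, had 15.9, 31.0 and 12.8 against 4.04, 4.04 and 3.40 and, in the spleen, 197, 124 and 138 against 133, 117 and 124 (−2.02 and −0.26, difference −1.76, SE 0.35, limma adjusted p = 0.0031). With a pair left out the adjusted p of *Kif20b* reached 0.109. The difference was −1.18 for *Kif15* (adjusted p = 0.0375, up to 0.277) and −1.24 for *Ube2c*, which encodes the ubiquitin-conjugating enzyme of the anaphase-promoting complex (adjusted p = 0.00841, 0.0542 without parenchyma replicate 3). In the parenchyma these 5 genes were at or below 61.1 normalized counts in every library, so that their ratios there rest on few reads. Other shared falls were those of *Kif11*, *Ndc80*, *Cenpf*, *Tpx2*, *Kif4a* and *Cep250*, with differences between −0.82 for *Kif4a* and 0.04 for *Cep250*, none past the threshold.

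DNA replication genes fell mainly in the spleen. Of 19 compared, 8 fell in the spleen (*Tk1*, *Chaf1a*, *Mcm7*, *Mcm2*, *Mcm5*, *Pola1*, *Rrm1* and *Mcm3*) and 1, *Lig1*, in the parenchyma, with medians of −0.44 and −0.06. The differences were positive for 16 of the 19, against 2932 of 6520 over all genes. None passed the threshold with limma, edgeR or DESeq2 and 8 had an unadjusted p under 0.05, so these falls are not shown to be restricted to the spleen. *Tk1*, thymidine kinase, had 141, 138 and 193 in NT and 78.7, 97.4 and 84.9 in *Ets1*-KO cells of the spleen and 12.1, 9.40 and 13.8 against 11.1, 10.1 and 10.2 in the parenchyma (−0.83 and −0.14, difference 0.69, SE 0.33, limma adjusted p = 0.342). *Chaf1a*, a chromatin assembly factor, had the difference nearest to the threshold among those named (0.93, SE 0.27, adjusted p = 0.067), with 252, 141 and 309 against 110.2, 131 and 153 in the spleen and 18.7, 24.4 and 22.6 against 20.2, 30.3 and 23.8 in the parenchyma. Parenchyma counts of *Tk1* and *Chaf1a* overlapped between genotypes and were low.

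*Ezh2*, the methyltransferase of Polycomb repressive complex, passed the test of the difference. *Dnmt1*, the maintenance DNA methyltransferase, had a difference of the same sign that missed the threshold. *Ezh2* had 444, 458 and 473 in NT and 636, 717 and 666 in *Ets1*-KO cells of the parenchyma, and 948, 725 and 956 against 747, 659 and 681 in the spleen (0.55 and −0.32, difference 0.88, SE 0.14, limma adjusted p = 0.00011). *Dnmt1* fell in the spleen, from 686, 518 and 644 to 385, 336 and 441 (−0.67, SE 0.11, adjusted p = 0.00259), and was at −0.25 in the parenchyma (difference 0.41, SE 0.17, limma adjusted p = 0.244).

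Genes of MHC class II fell in the spleen. Of 5 compared, 3 fell in the spleen (*RT1-Ba*, *Cd74* and *RT1-Db1*) and 1, *Cd74*, in the parenchyma, with medians of −0.72 and −0.22 and no tissue difference past the threshold with limma or DESeq2, 1 with edgeR and 2 with an unadjusted p under 0.05. *RT1-Ba*, the alpha chain of an MHC class II molecule, had 80.9, 83.9 and 89.3 against 48.6, 36.0 and 40.6 in the spleen and 29.0, 46.1 and 22.6 against 28.3, 18.2 and 18.1 in the parenchyma (−1.01 and −0.54, difference 0.47, SE 0.34). *Cd74*, the invariant chain, fell by 0.47 in the parenchyma and by 0.72 in the spleen. In the spleen B cell markers summed to 12.9 to 109.7 in NT and 6.16 to 33.7 in *Ets1*-KO cells, ranges that overlap. Only 1 of the 10 markers reached the count minimum there. A further 6, *Cd79a* and *Cd79b* among them, were at 0 in every spleen library. In the parenchyma that sum was at most 6.07. The part of such cells in these results was not tested.

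Ribosomal protein genes had higher ratios in the spleen. Of 76 cytosolic ribosomal genes 52 were compared, 7 rose in the spleen and 4 fell in the parenchyma, with medians of 0.29 and −0.16. Of the 52 differences 48 were negative and 4 positive, against 2932 positive of 6520 over all genes. The test of the difference was passed by 8 (*Rpl9*, *Rps3*, *Rpl24*, *Rps27a*, *Rpsa*, *Rps27*, *Rps10* and *Rps4x*), from −0.83 to −0.56, and without spleen replicate 3 by 13. *Rpl24* had 750.4, 841 and 652 in NT and 1259, 1091 and 1101 in *Ets1*-KO cells of the spleen and 1303, 1382 and 1217 against 1197, 1313 and 1349.9 in the parenchyma (0.63 and −0.02, difference −0.64, SE 0.14, limma adjusted p = 0.0055). *Rps3* had 624, 657 and 619 against 983, 868 and 811 in the spleen and 1030.3, 1070.2 and 938 against 849, 916 and 948 in the parenchyma (0.48 and −0.16, difference −0.64, SE 0.13, limma adjusted p = 0.00516). Both genes separated the genotypes in the spleen and overlapped in the parenchyma. With a pair left out the adjusted p reached 0.0911 for *Rps3*, 0.0996 for *Rpl24* and 0.116 for *Rpsa*, 0.2 for *Rpl9* and for *Rps27*, 0.324 for *Rps4x*, 0.327 for *Rps27a* and 0.338 for *Rps10*. Ribosomal genes have many near-identical copies, so that single values, *Rpl9* and *Rps4x* among them, are uncertain. The depth gap between genotypes in the spleen runs the same way as these rises. After all libraries were thinned to 898092 reads, 82 of all genes compared passed the test of the difference. The difference of *Rpl24* was then −0.60 (adjusted p = 0.019) and that of *Rps3* −0.59 (adjusted p = 0.024). Thinned values of the other ribosomal genes are not given here. Thinning evens the read totals only, and the part of depth in the ribosomal differences was not tested.

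The S100 and cytoskeletal list held 3 differences among 15 genes compared, all more negative in the parenchyma, against 93 of 6520 over all genes. *S100a4* had 3362, 3919 and 3270.3 against 7519, 5643 and 4911 in the spleen and 2099.8, 2499 and 2012 against 2075, 2611 and 2457 in the parenchyma (0.76 and 0.11, difference −0.65, SE 0.15, limma adjusted p = 0.0125). *Vim*, vimentin, fell in the parenchyma from 1833, 2049 and 1891 to 1091, 1268 and 1354 and had 7096, 6877 and 9551 against 6592, 7164 and 7480.3 in the spleen (−0.64 and −0.13, difference −0.51, SE 0.14, limma adjusted p = 0.0415). *S100a4* thus rose in the spleen and *Vim* fell in the parenchyma, although both differences had the same sign. With a pair left out the adjusted p of these differences reached 0.178 and 0.324. Of 14 immediate early genes, 3 rose and 1 fell in the parenchyma, 4 rose in the spleen (*Fos*, *Egr1*, *Fosb* and *Junb*) and 1 differed. Over all genes, 2.09% rose and 3.07% fell in the parenchyma, 1.06% rose in the spleen and 2.1% differed. *Fosb* had 219.9, 203 and 208 against 312, 306 and 391 in the spleen and 249, 166 and 199 against 200.2, 168 and 179 in the parenchyma (0.67 and −0.15, difference −0.81, SE 0.17, limma adjusted p = 0.00408, 0.0748 without parenchyma replicate 1). *Fos*, of the same AP-1 subfamily, had ratios of 0.86 and 0.35 (difference −0.52, SE 0.16, limma adjusted p = 0.0866).

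Genes of glycolysis had more positive ratios in the parenchyma. All 13 compared had a positive difference, against 2932 of 6520 over all genes. The medians were 0.20 in the parenchyma and −0.15 in the spleen, but only *Hk1*, hexokinase 1, passed the test. *Hk1* had 133, 149 and 129.7 in NT and 156, 181 and 137 in *Ets1*-KO cells of the parenchyma, and 26.3, 25.8 and 51.7 against 10.3, 17.99 and 28.7 in the spleen (0.20 and −0.87, difference 1.06, SE 0.27, limma adjusted p = 0.0252). Neither tissue passed alone for *Hk1*, its genotypes overlapped in both tissues, and the adjusted p of its difference reached 0.187 with a pair left out. Of 13 antioxidant genes, 4 rose in the parenchyma and 1 in the spleen, and 2 differed. Over all genes these shares were 2.09%, 1.06% and 2.1%. *Prdx5*, a peroxiredoxin, had 532, 531 and 394 against 778, 952 and 938 in the parenchyma and 66.7, 64.5 and 61.1 against 81.5, 77.5 and 68.7 in the spleen (0.88 and 0.24, difference 0.64, SE 0.17, limma adjusted p = 0.0404). *Txnrd1*, thioredoxin reductase, had ratios of 0.35 and −0.53 (difference 0.88, SE 0.19, limma adjusted p = 0.00594). *Fabp5*, which carries fatty acids in the cytosol, rose in the parenchyma from 30.8, 24.4 and 27.5 to 87.9, 85.9 and 82.7 and had 45.9, 31.2 and 15.7 against 35.6, 16.7 and 30.6 in the spleen (1.60 and −0.10, difference 1.70, SE 0.37, limma adjusted p = 0.00634). *Ctsb*, the lysosomal protease cathepsin B, had 474, 514 and 469 against 780.4, 995 and 886 in the parenchyma and 172, 203 and 182 against 205, 195 and 170.5 in the spleen (0.86 and 0.03, difference 0.83, SE 0.15, limma adjusted p = 0.000991). With a pair left out the adjusted p reached 0.324 for *Prdx5*, 0.0884 for *Txnrd1* and 0.067 for *Fabp5*. Markers of myeloid cells, which are rich in *Ctsb*, summed to 29.2 to 58.0 in NT and 52.6 to 72.8 in *Ets1*-KO cells of the parenchyma, with *Cd163*, *Mrc1* and *Adgre1* at 0, and their part in the result was not tested.

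The remaining large positive differences had several forms. *Timd2*, a TIM family surface protein, rose in the parenchyma from 79.4, 82.8 and 62.9 to 213, 197 and 190.4 and had 18.6, 24.7 and 17.2 against 24.0, 18.6 and 27.5 in the spleen (1.41 and 0.20, difference 1.21, SE 0.29, limma adjusted p = 0.0205). *Magi3*, a scaffold protein of cell junctions, rose in the parenchyma from 57.9, 34.8 and 55.0 to 106, 97.0 and 113 and had 43.8, 33.3 and 64.2 against 44.5, 34.1 and 33.7 in the spleen (difference 1.40, SE 0.29, limma adjusted p = 0.00525). *Bicd1*, a dynein adaptor, differed through its fall in the spleen: it had 17.5, 18.3 and 26.6 against 4.79, 7.44 and 6.87 there and 56.0, 40.4 and 57.0 against 47.5, 49.5 and 55.5 in the parenchyma (−1.56 and 0.01, difference 1.57, SE 0.39, limma adjusted p = 0.0232). *Psat1*, an enzyme of serine synthesis, *Zfpm1*, the GATA cofactor FOG1, and *Chst11*, a chondroitin sulfotransferase, rose in the parenchyma by 0.79, 0.82 and 0.90 and had spleen ratios of −0.54, −0.43 and −0.31, none of which passed. With a pair left out the adjusted p of the differences reached 0.149 for *Timd2*, 0.0714 for *Magi3*, 0.186 for *Bicd1*, 0.264 for *Psat1*, 0.209 for *Zfpm1* and 0.264 for *Chst11*.

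Of the 10 named genes among the 15 largest negative differences, 4 rose in the spleen, 3 fell in the parenchyma and 3 passed in neither tissue. *Mlkl*, the membrane-permeating effector of necroptosis, had 3.28, 5.38 and 4.70 in NT and 21.9, 16.1 and 28.1 in *Ets1*-KO cells of the spleen, and 33.6, 24.4 and 17.7 against 26.3, 13.1 and 23.8 in the parenchyma (2.07 and −0.26, difference −2.33, SE 0.49, limma adjusted p = 0.0055). *Ffar4*, a receptor of long-chain fatty acids, had 12.03, 24.7 and 9.40 against 50.0, 39.7 and 41.8 in the spleen and 29.9, 23.5 and 33.4 against 20.2, 11.1 and 30.6 in the parenchyma (1.56 and −0.56, difference −2.12, SE 0.42, limma adjusted p = 0.00322). *Pik3ip1*, an inhibitor of PI3K signalling, had 8.75, 16.1 and 15.7 against 25.3, 34.7 and 49.3 in the spleen and 46.7, 68.6 and 55.0 against 39.4, 62.7 and 49.9 in the parenchyma (1.36 and −0.17, difference −1.53, SE 0.34, limma adjusted p = 0.00788). Each of these genes separated the genotypes in the spleen and overlapped in the parenchyma, all at low counts. *Myof*, a membrane repair protein, rose by 1.12 in the spleen (difference −1.48). *Ccdc136* and *Podnl1* fell in the parenchyma by 0.95 and by 0.69 (differences −1.41 and −1.24), as did the mitotic gene *Kifc1*, whereas *Foxn2*, *Otulinl* and *Pi16* passed the test of the difference alone (−1.65, −1.55 and −1.37). Clone or locus names only are carried by 5 further genes among the 15 with the largest negative differences. In a list of quiescence and mRNA decay, 2 of 15 genes compared, *Btg1* and *Txnip*, had a tissue difference, and 3 fell in the parenchyma. Over all genes 2.1% had a difference and 3.07% fell in the parenchyma. *Btg1*, an antiproliferative factor, fell from 197, 221 and 234 to 152, 149.6 and 143 in the parenchyma and had 253, 331 and 210.0 against 357, 339.9 and 262 in the spleen (difference −0.83, SE 0.17, limma adjusted p = 0.00353). *Txnip*, an inhibitor of glucose uptake, had a difference of −0.70 (limma adjusted p = 0.0378). *Was*, an actin regulator, was the only 1 of 23 genes of actin and motility with a difference (−0.69, limma adjusted p = 0.00421), and *Rasgrp2*, which activates the integrin switch RAP1, the only 1 of 18 genes of integrins and adhesion (−0.75, limma adjusted p = 0.0415). Such single calls, against 137 of 6520 over all genes, are results for these genes and not for their lists. With a pair left out the adjusted p reached 0.0772 for *Mlkl* and 0.0746 for *Pik3ip1*, from 0.0888 to 0.274 for *Myof*, *Ccdc136*, *Foxn2*, *Otulinl* and *Pi16*, 0.057 for *Btg1*, 0.292 for *Txnip* and 0.101 for *Was*, and *Rasgrp2* passed in none of these analyses (0.0819 to 0.193).

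Several lists held no tissue difference with limma. Among them were those of T cell receptor signalling (26 genes compared, 5 with an unadjusted p under 0.05, 1 passing with edgeR), the proteasome (32, 2 and 1), the nuclear genes of the respiratory chain (68, 4 and 0), the ETS family (11, 0 and 0), sterol synthesis (18, 1 and 0) and the naive and memory state (10, 4 and 0). The Th17, DNA replication and MHC class II lists above also held none. Further lists without a call were those of the TNF receptor family, the IL-1 and IL-18 axis, inhibitory receptors and NF-kB feedback. So were those of the BCL2 family, GIMAP genes, tubulins, mitochondrially encoded genes and chaperones of the endoplasmic reticulum. DESeq2 found none in these lists, and over all genes 897 of 6520 had an unadjusted p under 0.05. Naive and memory state genes fell in the parenchyma for 4 of 10, *Lef1* by 1.19, *Tcf7* by 0.86, *Cd44* by 0.59 and *Satb1* by 0.36, and none passed in the spleen. The difference passed for none of them in the analysis of all pairs and for 2 of the list without spleen replicate 3. With 3 pairs per tissue the median SD of the 3 ratios of a gene was 0.253 in the parenchyma and 0.287 in the spleen, and an exact permutation test of 3 against 3 cannot give a p below 0.1. Lack of a call here does not show equal effects.

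**Figure D4:**
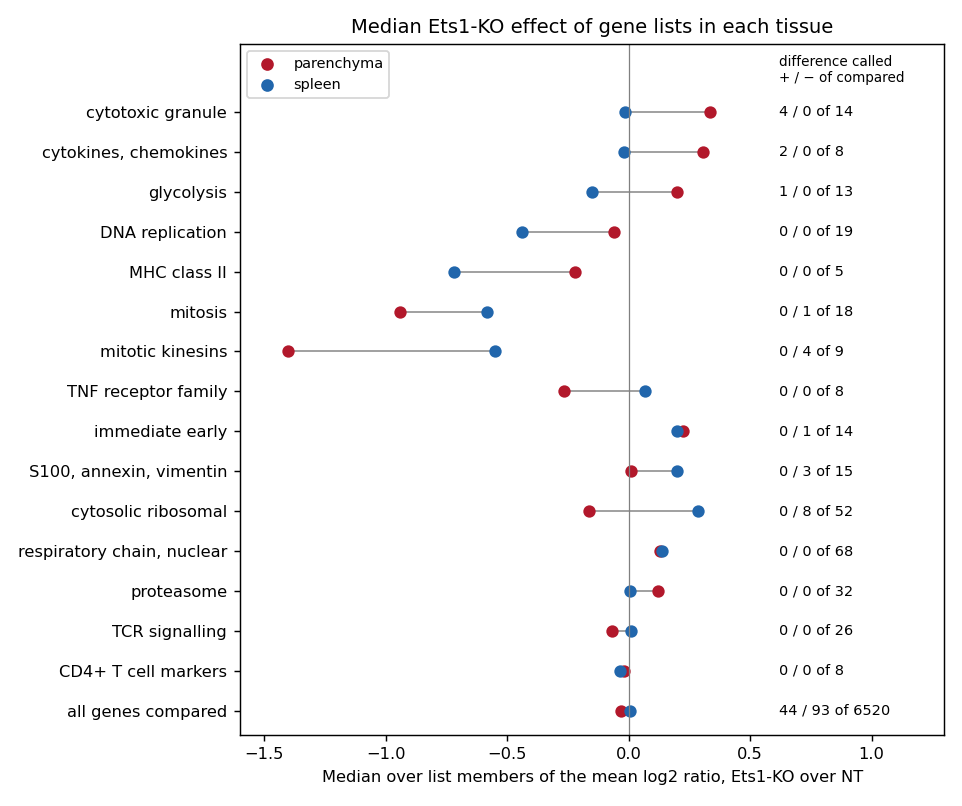
Median over list members of the mean log2 ratio, *Ets1*-KO over NT (x axis), in the parenchyma (red) and the spleen (blue) for 15 gene lists and for all genes compared, with the number of members whose difference was called more positive or more negative in the parenchyma. Mitotic kinesins were at −1.40 and −0.55, cytotoxic granule genes at 0.34 and −0.01 and ribosomal genes at −0.16 and 0.29, whereas the medians of all genes were −0.03 and 0.01.

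Some effects could be measured in 1 tissue only. In the parenchyma 30 changed genes, 23 of them higher in *Ets1*-KO cells, were below the count minimum in the spleen, and in the spleen 15 changed genes, 2 of them higher, were below the minimum in the parenchyma. *Tnfrsf9*, the costimulatory receptor 4-1BB, had 239, 212 and 180 in NT and 694, 743 and 877 in *Ets1*-KO cells of the parenchyma (log2 ratio 1.87, SE 0.09) and was at 0 in 5 of 6 spleen libraries and at 1.24 in the other. *Il1rn*, the interleukin-1 receptor antagonist, rose in the parenchyma from 8.41, 12.2 and 8.85 to 58.6, 107 and 82.7 (2.93, SE 0.25) and was at most 5.48 in the spleen. *Calca*, which encodes calcitonin and its related peptide, rose from 7.47, 15.1 and 7.86 to 64.7, 85.9 and 66.9 (2.78, SE 0.26) and was at 0 in the spleen. The other named rises were *Alpl* and *Barx2* (1.87 and 1.73). Among the spleen falls of genes below the minimum in the parenchyma was that of *Brca2*, a DNA repair gene, from 43.8, 36.6 and 39.2 to 19.9, 14.9 and 22.5 (−1.04). *Nefl*, a neurofilament gene, rose in the spleen from 48.1, 20.4 and 40.7 to 68.5, 79.4 and 118 (1.31), where the other 9 neural and glial markers summed to 25.1 to 35.0 in NT and 22.6 to 33.1 in *Ets1*-KO cells with *Mog*, *Gfap*, *Snap25* and *Syt1* at 0. For these genes a tissue difference of the effect was not detectable at this depth.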

How the data were processed

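RNA of TMBP cells was sequenced with a 3′ mRNA kit in 12 rat libraries, 3 per group. According to the methods and the submitters' processing notes, the authors aligned reads without trimming to Rnor_6.0 with STAR 2.7.2b, counted them per gene with HTSeq 1.0.0 and scaled them with DESeq2 (poscounts size factors). The signal values deposited by the authors are these normalized counts, in 1 table per tissue of 32882 genes. The tables were scaled separately, so that only ratios within a table were compared between tissues. All positive values (100%) were whole reads times 1 factor per library, within a tolerance of 0.01. The authors' comparison tables hold fold changes, p-values and pathway lists and were not used. The *Grk2* libraries and 8 human columns per sample that belong to no sample given here were not used here.

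Genes with a mean of at least 10 entered limma 3.58.1 in R 4.3.3 (lmFit, and eBayes with a trend) as log2(normalized count + 1), within a tissue with the replicate number as a block (7002 and 6979 genes) and between tissues on the 6 log2 ratios (6520 genes). Fold changes are on the log2(value + 1) scale, which understates the change of low genes. All tests were two-sided, and the Benjamini-Hochberg adjusted p threshold was 0.05 over all genes of a test. Prior degrees of freedom were 33.1 for the difference, 22 for the spleen and not finite for the parenchyma, so that very small p-values there rest on the trend over genes. Pairing of libraries with the same number rests on the transfer of both genotypes into one animal in the methods, which the labels do not state. Deviations of same-numbered NT and *Ets1*-KO libraries from their group means correlated with r = 0.126, 0.159 and −0.003 in the parenchyma and 0.089, 0.077 and 0.175 in the spleen.

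The text names *Ets1*, the 15 largest positive and negative differences with ratios that do not overlap, the 10 largest shared changes per direction, genes of opposite change, list members with a difference and up to 4 further members per list, and up to 5 genes per direction measured in 1 tissue. A gene that this rule names is not reported here. Other members of a list that are named were called within a tissue. The genes, the 46 lists and the tests were chosen with earlier results of these data known. The alternatives were no block, a block across tissues, pseudocounts of 0.1 and 5, no filter, a minimum of 50, quantile normalization, TMM scaling, no trend, weights per tissue, edgeR 4.0.16 (quasi-likelihood) and DESeq2 1.42.0 on recovered reads, reads thinned to 898092 per library, and each pair left out. The test of the difference was also run on simulated counts. These held neither pair effects nor an outlying pair, so that run cannot vouch for the calls in these data. Promoters are RefSeq sequences on GRCr8, matched by symbol, and the guides are those of the study.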

Additional observations from a re-analysis of the deposited data

Results flagged for a closer look

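The contrast of *Ets1*-KO against NT gave different results in the 2 tissues for 137 genes by the test of the difference (limma, adjusted p under 0.05). Values below are differences of the log2 ratio, parenchyma minus spleen.

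Among the named genes the ratio was more positive in the parenchyma for the granule and chemokine genes *Gzma* (1.39), *Prf1* (1.38), *Cst7* (1.34), *Nkg7* (1.27), *Ccl4* (1.57) and *Ccl3* (1.03). The same direction was found for the receptor genes *Vdr* (2.32), *Il2ra* (0.72) and *Timd2* (1.21). Genes of metabolism and protein breakdown with this direction were *Fabp5* (1.70), *Psat1* (1.32), *Hk1* (1.06), *Txnrd1* (0.88), *Prdx5* (0.64), *Chst11* (1.20) and *Ctsb* (0.83). The others were *Bicd1* (1.57), *Magi3* (1.40), *Zfpm1* (1.26), *Ybx3* (1.19), *Rangap1* (1.13) and *Ezh2* (0.88).

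The ratio was more negative in the parenchyma for the mitotic genes *Kifc1* (−1.76), *Ube2c* (−1.24), *Kif15* (−1.18), *Cenpe* (−1.12) and *Kif20b* (−1.11). Ribosomal genes with this direction were *Rpl9* (−0.83), *Rps3* (−0.64), *Rpl24* (−0.64), *Rps27a* (−0.64), *Rpsa* (−0.63), *Rps27* (−0.60), *Rps10* (−0.58) and *Rps4x* (−0.56). Signalling and transcription genes were *Ffar4* (−2.12), *Pik3ip1* (−1.53), *Foxn2* (−1.65), *Ccr3* (−1.18), *Fosb* (−0.81) and *Rasgrp2* (−0.75). The others were *Mlkl* (−2.33), *Otulinl* (−1.55), *Myof* (−1.48), *Ccdc136* (−1.41), *Pi16* (−1.37), *Podnl1* (−1.24), *Dap* (−0.99), *Btg1* (−0.83), *Txnip* (−0.70), *Was* (−0.69), *S100a4* (−0.65), *S100a6* (−0.52) and *Vim* (−0.51).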

How the results depend on the processing

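None of the differences of the named genes turned its sign past the threshold in the 19 alternatives. The number of genes with a tissue difference (137) was 47 without the replicate block, 82 with thinned reads, 40 with DESeq2 and 2 without the variance trend, and from 37 to 223 when 1 pair was left out. The parenchyma calls (366 of 7002 genes) were 200 without the block, 212 without a filter, 230 with thinned reads, 90 with DESeq2 and 3 without the trend, and 165 to 278 with a pair left out. The spleen calls (155 of 6979) were 71 without the block, 242 without a filter, 238 with edgeR, 48 with DESeq2 and 0 without the trend, and 3 (without replicate 1) to 241 with a pair left out. The 26 shared changes were 15 without the block, 9 with DESeq2 and 0 without the trend, and 1 to 33 with a pair left out. The 4 opposite changes were 2, 1 and 0 in the same order, and 0 to 7 with a pair left out. Without the trend, prior degrees of freedom were 3.25 to 3.72 and 757 genes still had an unadjusted p under 0.05 for the difference. Same-numbered libraries of a tissue did not all correlate, so the pairing rests on the design. Ratios of the same number did not correlate across tissues (r = 0.004, 0.052 and −0.011), and a replicate block across tissues gave 158. Depth limits genes with few reads in the parenchyma, above all those of mitosis.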
